A study of Mus musculus with 8 samples.

Results

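The 9 genes described here encode sensors of foreign or misplaced nucleic acid, the adaptors and transcription factors that carry their signal, and genes that interferon switches on. They are Ddx58, Ifih1, Mavs, Tmem173, Irf3, Irf7, Isg15, Bst2 and Ly6a. The rule that picked them names the genes and uses no measured value, though they were chosen with earlier results of these data known. Each was found once among the 37305 rows of the deposited expression table.

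RIG-I (encoded by Ddx58) and MDA5 (Ifih1) bind double-stranded or otherwise unusual RNA in the cytosol and signal through MAVS, a protein of the mitochondrial outer membrane. Cytosolic DNA, including DNA that leaves mitochondria, is detected by cGAS, which signals through STING (Tmem173). Both routes activate the factors IRF3 and IRF7, which turn on type I interferon genes, and secreted interferon then acts through JAK kinases and STAT factors to raise interferon-stimulated genes such as Isg15 and Bst2. Pluripotent stem cells are known for a weak interferon response.

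RNA-seq was done on 8 libraries of mouse iPS (induced pluripotent stem) cells, made by reprogramming other cells to a state like that of embryonic stem cells. Mutator lines (5 libraries) were homozygous for the D257A substitution in Polg, which removes proofreading by the mitochondrial DNA polymerase so that mutations build up in mtDNA. Wild-type lines (3 libraries) came from embryos of the same litters. All cells were cultured with LIF on growth-arrested feeders, whose cell type the labels do not name, and spent 1 passage on gelatin before RNA was taken. The comparison asks whether these genes show a response to mtDNA that has left mitochondria.

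The unit was FPKM, that is, sequenced fragments divided by transcript length and by the library's mapped fragments, and depth was not recorded. Between 11198 and 11899 genes per library reached 1 FPKM. Mutator replicates 1 and 2 differed by about the sampling noise (1.48 times its expected squared size, and 1.04 times among genes of at least 1000 implied fragments, against 5.41 to 21.69 times and 15.98 to 361.71 times in the 12 other pairs). Their column headers share a line code, so they were averaged and counted as 1 sample, leaving 4 mutator and 3 wild-type samples. A number is shared by the wild-type headers; if it stands for 1 embryo, genotype and embryo cannot be told apart. Polg, whose level a point substitution need not alter, measured 8.95, 9.48 and 10.0 FPKM in wild-type libraries and 11.8, 12.0, 10.7, 7.41 and 10.6 FPKM in mutator libraries 1 to 5. The Y-linked gene Ddx3y was at 0.365 to 1.47 FPKM in mutator 1, 2 and 4, at 8.14 and 9.64 FPKM in mutator 3 and 5, and at 6.31 to 19.9 FPKM in wild type. The X-linked gene Xist was at 4.93, 5.07 and 5.3 FPKM in mutator 1, 2 and 4, and at 2.02 to 3.56 FPKM in the other libraries. The sex-linked genes thus differed partly along with genotype, and their part in the differences below was not tested. The summed FPKM of 12 pluripotency markers was 965 to 1290 in wild-type and 636 to 873 in mutator libraries, and 0 of the 12 passed the test described next (limma; 2 at an unadjusted p below 0.05).

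In the mutator cells Ly6a transcripts rose from below 1 FPKM to between 2.25 and 12.1 FPKM. Ddx58 had lower values in every mutator library, at a size that missed the threshold. Isg15 was nearly undetected in wild-type and slightly higher in mutator libraries. Bst2 and Irf3 had higher means in mutator samples with overlapping values, and Mavs, Tmem173, Irf7 and Ifih1 overlapped between the groups. Every gene averaging at least 1 FPKM entered a limma test on log2(FPKM + 1), with Benjamini-Hochberg adjustment over all 11949 such genes and a threshold of 0.05, and log2 differences below are mutator minus wild type on that scale. Of the 9 genes, 5 were tested and 4 lay below this filter. Ly6a was the 1 gene that passed, and it was higher, in a table where 2.95% of the tested genes were called higher and 4.54% lower (7.49% in either direction), or, after TPM rescaling, 1092 genes higher and 21 lower. No member was called lower (0 with limma, 1 at an unadjusted p below 0.05, which was Ddx58). Ly6a reached the filter only through its mutator values, so its presence among the tested genes is not independent of its difference. Mutator samples lay wholly above wild type in 12.4% of tested genes and wholly below in 16.1%. In bulk RNA, fewer cells of a type and less RNA per cell cannot be told apart.

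**Figure D1:**
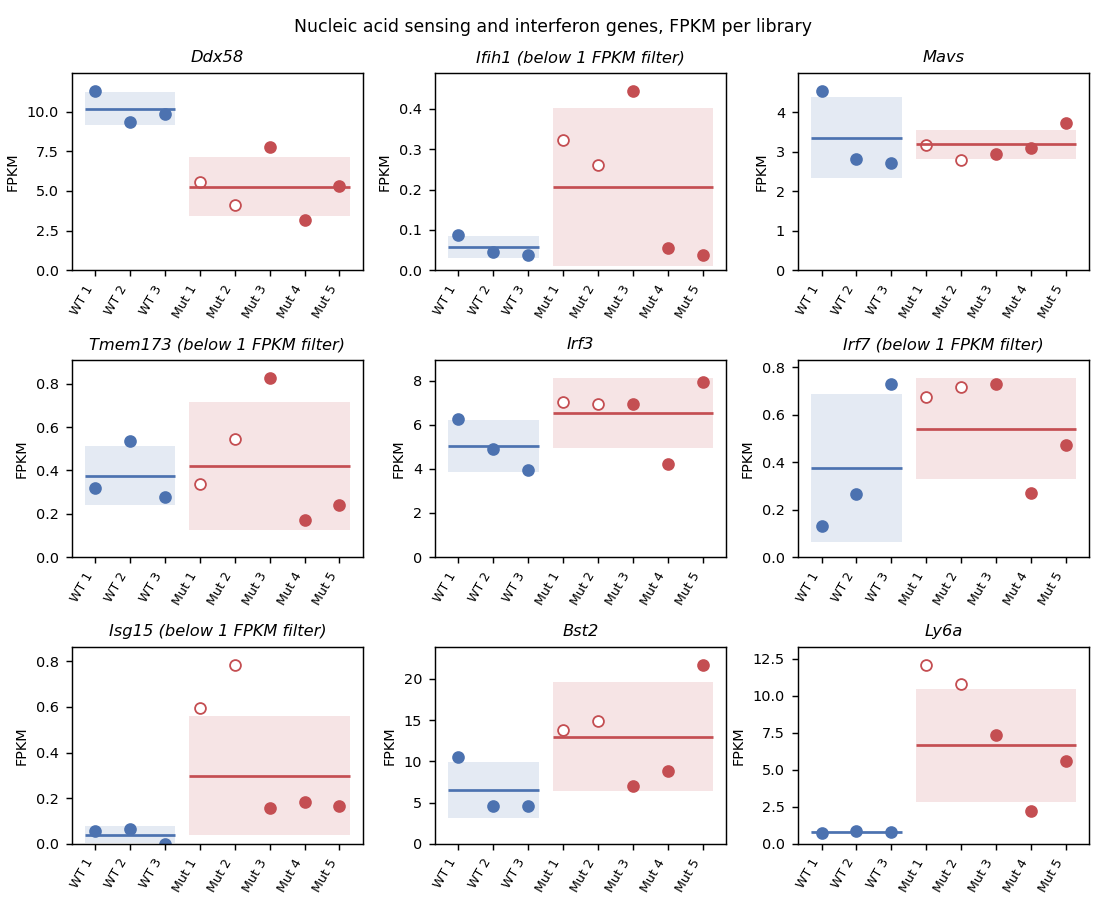
FPKM of the 9 genes in each library, with 3 wild-type (blue) and 5 mutator (red) libraries on the horizontal axis; lines are group means and shading is 1 SD over 3 and 4 samples, and open circles are mutator replicates 1 and 2, counted as 1 sample. The mutator points lie above all wild-type points for Ly6a and Isg15 and below them for Ddx58.

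Of the sensors, Ddx58 (RIG-I; ENSMUSG00000040296, chr4:40203773-40239828, minus strand, GRCm38) measured 11.3, 9.38 and 9.84 FPKM in wild-type replicates 1 to 3. It measured 5.55, 4.12, 7.76, 3.18 and 5.33 FPKM in mutator replicates 1 to 5. Every mutator library lay below every wild-type library, with mutator 3 nearest to them. Wild type averaged 10.2 ± 1.03 FPKM (SD, n = 3), 1.93 times the mutator mean of 5.28 ± 1.89 FPKM (SD, n = 4). The log2 difference of -0.88 (standard error 0.24, 95% interval -1.43 to -0.33) did not pass the threshold (limma adjusted p = 0.06; p = 0.0571 in the exact two-sided permutation test, the smallest that 4 against 3 samples allow). It passed with median-of-ratios scaling (adjusted p = 0.048), with all 8 libraries counted separately (0.029), with array weights (0.0093) and without mutator 3 (-1.06, 0.034), whereas TPM rescaling gave -0.42 (0.44).

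Ifih1 (MDA5; ENSMUSG00000026896, chr2:62595798-62646255, minus strand), the sensor of long double-stranded RNA, was low throughout. Wild-type libraries held 0.0879, 0.0443 and 0.0376 FPKM, and mutator libraries 0.322, 0.26, 0.444, 0.056 and 0.0379 FPKM. Mutator 1, 2 and 3 lay above all wild-type libraries, and mutator 4 and 5 lay among them. Ifih1 was below the filter, and the means of 0.0566 ± 0.0273 (SD, n = 3) and 0.207 ± 0.196 FPKM (SD, n = 4) gave an exact two-sided permutation p of 0.343.

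Of the adaptors, Mavs (ENSMUSG00000037523, chr2:131234063-131248025, plus strand), on which RIG-I and MDA5 converge, measured 4.54, 2.83 and 2.71 FPKM in wild-type and 3.18, 2.79, 2.95, 3.1 and 3.74 FPKM in mutator libraries. The groups overlapped fully, since wild-type 1 was the highest and wild-type 3 the lowest of the 8 libraries. The log2 difference was -0.03, with a standard error of 0.18 and a 95% interval of -0.45 to 0.38 (limma adjusted p = 0.92; exact permutation p = 0.857), and its sign turned without wild-type 1 (0.15), with array weights (0.09) and with TPM rescaling (0.34).

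Tmem173 (STING; ENSMUSG00000024349, chromosome 18), the adaptor of the DNA route, stayed below 1 FPKM everywhere. Its values were 0.317, 0.534 and 0.277 FPKM in wild-type and 0.335, 0.545, 0.827, 0.17 and 0.238 FPKM in mutator libraries. Mutator 3 was the highest and mutator 4 the lowest of the 8, with wild type between them. The means were 0.376 ± 0.138 (SD, n = 3) and 0.419 ± 0.296 FPKM (SD, n = 4; exact two-sided permutation p = 0.914).

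The 2 factors were at different levels. Irf3 (ENSMUSG00000003184, chr7:44997648-45002848, plus strand), present in most cells before any stimulus, measured 6.28, 4.9 and 3.94 FPKM in wild-type and 7.06, 6.93, 6.93, 4.23 and 7.96 FPKM in mutator libraries. Mutator 1, 2, 3 and 5 exceeded all wild-type values and mutator 4 lay among them. The log2 difference of 0.31 (standard error 0.23, 95% interval -0.21 to 0.82) did not pass (limma adjusted p = 0.38; exact permutation p = 0.286).

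Irf7 (ENSMUSG00000025498, chr7:141262706-141266481, minus strand), which interferon itself induces, measured 0.132, 0.265 and 0.729 FPKM in wild-type and 0.674, 0.718, 0.728, 0.271 and 0.473 FPKM in mutator libraries. Wild-type 3 stood level with the highest mutator library, so the groups overlapped. The means were 0.375 ± 0.313 (SD, n = 3) and 0.542 ± 0.213 FPKM (SD, n = 4; exact two-sided permutation p = 0.457).

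Of the interferon-responsive genes, Ly6a (Sca-1; ENSMUSG00000075602, chr15:74994877-74998031, minus strand) encodes a lipid-anchored surface protein known from blood stem cells and also found on fibroblasts. It measured 0.745, 0.858 and 0.794 FPKM in wild-type libraries and 12.1, 10.8, 7.37, 2.25 and 5.57 FPKM in mutator libraries. Every mutator library exceeded every wild-type library, mutator 4 by the least, while wild-type values were close together. The means were 0.799 ± 0.0568 FPKM (SD, n = 3) and 6.66 ± 3.83 FPKM (SD, n = 4), an 8.33-fold ratio. The log2 difference was 1.93 (standard error 0.39, 95% interval 1.04 to 2.83; limma adjusted p = 0.035; p = 0.0571 in the exact two-sided permutation test). The call was lost without wild-type 1 (adjusted p = 0.1), wild-type 2 (0.13), wild-type 3 (0.11), mutator 5 (0.058) or the mutator 1 and 2 pair (difference 1.65, 0.072), and also with no filter (0.086), while the direction was kept in each of these.

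Feeder and endoderm markers had higher values in some of the mutator libraries, though none passed the test. The summed FPKM of 15 feeder (fibroblast) markers was 43.4, 47 and 68.6 in wild-type and 213, 212, 171, 67.6 and 101 in mutator libraries, and the 13 that were tested all had positive differences, with a median of 0.68 and 0 called (limma; 3 at an unadjusted p below 0.05). The sum of 12 endoderm markers was 55.2 to 66 in wild-type and 67.9 to 399 in mutator libraries (8 tested, all positive, 0 called with limma, 6 at an unadjusted p below 0.05). S100a4 made up much of the feeder sum, at 24.769 to 42.227 FPKM in wild-type and 138.32, 138.459, 68.96, 41.491 and 75.904 FPKM in mutator libraries. The mean log2(FPKM + 1) of the 15 genes, which weights them alike, was 1.28, 1.46 and 1.64 in wild-type and 2.71, 2.68, 2.88, 1.61 and 1.65 in mutator libraries. Mutator 1 to 3 were thus above wild type on both measures, while mutator 4 and 5 stood level with wild-type 3 on the mean, with Ly6a at 2.25 and 5.57 against 0.794 FPKM. The endoderm sum was 135 to 138 FPKM in mutator 1 to 3, 67.9 FPKM in mutator 4 and 399 FPKM in mutator 5. The mean log2(FPKM + 1) of the 12 endoderm genes was 1.46, 1.39 and 1.41 in wild-type libraries. In mutator libraries it was 2.32, 2.31, 2.24, 1.63 and 3.67. Mutator 4 was thus the lowest mutator library for these markers, as for Ly6a, while the highest was mutator 5 for the markers and mutator 1 for Ly6a. In mutator 3 and 5, where Ddx3y was within the range of the wild-type libraries, Ly6a was at 7.37 and 5.57 FPKM. Feeder and endoderm are names of the marker lists, and which cells this RNA came from was not tested. Beyond these values, the part of feeder or endoderm RNA in the Ly6a difference was not tested.

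Bst2 (tetherin; ENSMUSG00000046718, chr8:71534255-71537456, minus strand) holds budding virus particles on the cell surface. It measured 10.5, 4.57 and 4.55 FPKM in wild-type and 13.8, 14.9, 7.05, 8.83 and 21.7 FPKM in mutator libraries. Mutator 1, 2 and 5 exceeded all wild-type libraries, while mutator 3 and 4 lay below wild-type 1. The means of 6.54 ± 3.42 (SD, n = 3) and 13.0 ± 6.61 FPKM (SD, n = 4) differed 1.99-fold, a log2 difference of 0.86 (standard error 0.4, 95% interval -0.05 to 1.78) that did not pass (limma adjusted p = 0.19; exact permutation p = 0.171). It passed with array weights (1.01, adjusted p = 0.027).

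Isg15 (ENSMUSG00000035692, chr4:156199424-156200818, minus strand) encodes a ubiquitin-like protein that is attached to other proteins after interferon. It was listed at 0.056, 0.0667 and 0 FPKM in wild-type and at 0.593, 0.784, 0.158, 0.185 and 0.164 FPKM in mutator libraries. Every mutator library exceeded every wild-type library, with mutator 1 and 2 well above mutator 3 to 5. At the depth implied by mutator 1, about 30200000 fragments (quartiles 15200000 to 41500000 over 33 genes), these values would be 0 to 1.5 fragments in wild-type and 3.6 to 17.9 in mutator libraries, so no fold is given. The log2 difference of 0.3 had an exact two-sided permutation p of 0.0571, and it was 0.17 without the mutator 1 and 2 sample.

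The promoters of Isg15 and Bst2 are shown because these members hold letters that match the core of the interferon-stimulated response element (ISRE), a sequence through which interferon acts on its target genes, and that of B2m because it is the gene whose profile was most like that of Ly6a, described below. In the 250 bases before each start (RefSeq, GRCm38.p6), the ISRE core, searched on both strands as GAAA, any 2 bases and GAAA again, was found in 978 of 32851 promoters (2.98%). Of the 7 members with a promoter in that table, 2 held it. Capitals mark the matching bases, and each sequence is the strand of the gene, 5′ to 3′: Isg15 from chr4:156200850-156200921, minus strand, with 3 overlapping cores at 78 to 57 bases before the start; Bst2 from chr8:71537562-71537627, minus strand, with 2 overlapping cores at 130 to 115; and B2m from chr2:122147523-122147582, plus strand, with 1 core at 139 to 130.
Isg15: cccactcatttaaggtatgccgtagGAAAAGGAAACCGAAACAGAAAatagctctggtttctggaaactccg
Bst2: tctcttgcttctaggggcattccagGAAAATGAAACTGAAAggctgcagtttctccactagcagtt
B2m: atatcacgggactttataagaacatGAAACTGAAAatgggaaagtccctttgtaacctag
The windows of Ddx58, Ifih1, Mavs, Irf3 and Irf7 did not hold the ISRE core. A match describes letters only.

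Within wild-type cells the FPKM levels, which are per length, ran in the order Ddx58, Bst2, Irf3, Mavs, Ly6a, Tmem173, Irf7, Ifih1 and Isg15. The ranges of neighbours did not overlap between Mavs and Ly6a, between Ly6a and Tmem173 or between Irf7 and Ifih1, and the other neighbours overlapped. In mutator cells the order was Bst2, Ly6a, Irf3, Ddx58, Mavs, Irf7, Tmem173, Isg15 and Ifih1, and Mavs and Irf7 were the 1 neighbouring pair without overlap. The members with mean levels of at least 1 FPKM therefore included the sensor RIG-I, the adaptor MAVS and the factor IRF3, while STING, MDA5 and IRF7 lay below it.

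The 4 tested genes whose log2 profile over the 7 samples was most like that of Ly6a were B2m, the light chain of class I histocompatibility molecules (mean absolute difference 0.17), Fbln2 (0.21) and Efemp1 (0.24), which encode fibulins of the extracellular matrix, and Timp2 (0.27), an inhibitor of matrix metalloproteinases. B2m measured 5.95, 6.49 and 5.16 FPKM in wild-type and 37.1, 39.2, 19.3, 9.64 and 19.9 FPKM in mutator libraries. Its order across the mutator libraries was close to that of Ly6a, with mutator 4 the lowest. The log2 differences were 1.58 for B2m, 1.49 for Fbln2, 1.85 for Efemp1 and 1.73 for Timp2. They are given here without a test, since likeness to Ly6a fixed their direction.

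Ly6a lies in a cluster of Ly6 genes on chromosome 15. Its neighbour Ly6e (74955051 to 74959905), which is itself interferon-responsive, measured 5.26, 2.66 and 2.26 FPKM in wild-type and 4.04, 4.25, 6.18, 3.75 and 5.31 FPKM in mutator libraries, a log2 difference of 0.45 (limma adjusted p = 0.26). Ly6c1 stood at 0, 0.162 and 0 FPKM in wild-type and 0.73, 1.05, 0.463, 0.193 and 0.352 FPKM in mutator libraries, so every mutator library was higher. Ly6i, Ly6c2 and Ly6g were listed at 0.113 FPKM or less in each library. Near-identical copies in this cluster can share reads, so the levels of single Ly6 genes are uncertain. Of 22 further Ly6-family genes 3 were tested, and 1 rose, Ly6g6e, from 1.12 ± 0.551 FPKM (SD, n = 3) to 3.3 ± 0.972 FPKM (SD, n = 4; log2 difference 1.03, limma adjusted p = 0.047).

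Beyond the 9 members, 86 genes in 9 lists were tested. The lists covered the sensing and interferon pathway, the Ly6 family and genes that keep mtDNA and mtRNA inside mitochondria. Of the 86, 10 passed, 6 higher (Ly6g6e of the Ly6 family among them) and 4 lower in mutator cells. The counts were 11 and 0 after TPM rescaling, and 9 and 10 with median-of-ratios scaling. Of all tested genes 2.95% were called higher and 4.54% lower (7.49% in either direction). The median log2 difference of all tested genes was -0.03, or 0.37 after rescaling to TPM, a shift of 0.4. List medians after TPM rescaling are quoted without subtracting this shift and are to be read against 0.37. None of the 86 passed without wild-type 1, 2 or 3 or without the mutator 1 and 2 pair (0 with limma, 20 to 27 at an unadjusted p below 0.05), 2 passed without mutator 5 and 5 without mutator 4.

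Of 14 genes of RNA sensing 8 were tested, 1 fell and 0 rose (limma; 1 higher at an unadjusted p below 0.05), with a median of -0.21, or 0.21 after TPM rescaling. Dhx33, a helicase linked to RNA sensing in human cells and to ribosome production, fell from 13 ± 2.89 to 6.92 ± 1.06 FPKM (SD, n = 3 and 4; log2 difference -0.81, limma adjusted p = 0.046). Of 19 genes of DNA sensing 13 were tested and 1 fell, with a median of -0.29, or 0.19 after TPM rescaling. The TPM medians of both sensing lists lay below the 0.37 of all tested genes. Xrcc6, the Ku70 subunit of DNA end joining that also binds cytosolic DNA, fell from 59.5 ± 10.3 to 33.3 ± 4.4 FPKM (-0.81, limma adjusted p = 0.045). After TPM rescaling Dhx33 was at -0.34 (0.55) and Xrcc6 at -0.31 (0.61), both below the median of 0.37. The DNA sensor cGAS, listed under the name E330016A19Rik and chosen here after its values were seen, stood at 0.33, 0.772 and 0.362 FPKM in wild-type and 0.214 to 0.27 FPKM in mutator libraries and lay below the filter.

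None of 10 tested genes of the relay between adaptors and factors passed (0 with limma, 0 at an unadjusted p below 0.05; median 0.13). The most abundant were Chuk, an IKK kinase, Azi2, an adaptor of the kinase TBK1 (log2 difference 0.12), and Sike1, an inhibitor of that kinase pathway (0.4). Of 10 tested factors 1 rose. It was Jun, a component of the AP-1 factor, at 1.12 ± 0.0872 FPKM (SD, n = 3) in wild type and at 4.39 ± 1.56 FPKM (SD, n = 4) in mutator samples (log2 difference 1.3, limma adjusted p = 0.033). The median of the 10 was 0.26. After TPM rescaling the median was 0.54 for the relay genes and 0.55 for the factors, against 0.37 for all genes.

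None of 18 interferon genes was abundant enough to test, and 9 were listed at 0 in all 8 libraries, Ifnb1 among them. The highest mean was 0.46 FPKM for Ifnk, which was at 0.256 to 0.549 FPKM in wild-type and 0.346 to 0.669 FPKM in mutator libraries. Ifne was listed at 0 in wild-type and at 0 to 0.279 FPKM in mutator libraries. Of 10 tested receptor, JAK and feedback genes 1 rose, Jak1, the kinase of the interferon receptors and of the gp130 chain that LIF signals through, from 4.92 ± 0.19 to 10.4 ± 1.24 FPKM (SD, n = 3 and 4; log2 difference 0.94, limma adjusted p = 0.026). The receptor chains Ifnar1 (-0.2, limma adjusted p = 0.44) and Ifnar2 (0.42, 0.24), named here after their values were seen, did not pass. The median of the 10 tested genes was 0.18, or 0.49 after TPM rescaling, against 0.37 for all genes.

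Of 70 interferon-stimulated genes 29 were tested, and 3 rose and 2 fell, with a median of -0.22 and 10 of 29 positive. The median was 0.16 after TPM rescaling, against 0.37 for all genes. Wild-type 1 had the highest value for 14 of the 29 and a summed level of 289 FPKM, against 196 and 186 FPKM in wild-type 2 and 3. Ifitm1, Ifitm2 and Ifitm3, at 38.791, 61.96 and 73.001 FPKM, made up much of its sum. Its values were also high over the whole table, with a median-of-ratios scaling factor of 1.15 against 0.967 and 0.953. The share of all tested genes highest in wild-type 1 was not counted. Without wild-type 1 the median was -0.06, with 13 of 29 positive, and that of all genes 0.05. H2-D1, a class I heavy chain, rose from 2.79 ± 0.0367 to 8.57 ± 3.73 FPKM (SD, n = 3 and 4; 1.25, limma adjusted p = 0.042). Shisa5, an endoplasmic reticulum protein linked to apoptosis, rose from 3.38 ± 1.32 to 8.74 ± 2.22 FPKM (1.16, limma adjusted p = 0.04). B2m was the third gene that rose, from 5.86 ± 0.669 to 21.8 ± 11.9 FPKM (1.58, limma adjusted p = 0.044). It is the gene most like Ly6a described above, and is counted here as a gene of this list. Ifitm1, a membrane protein that restricts virus entry and is also expressed in early embryonic cells, fell from 29.3 ± 8.19 to 12 ± 3.18 FPKM (-1.21, limma adjusted p = 0.035). Phf11d, listed as D14Ertd668e, fell from 7.69 ± 1.95 to 3.74 ± 0.462 FPKM (-0.85, limma adjusted p = 0.04). After TPM rescaling Ifitm1 was at -0.72 (limma adjusted p = 0.26) and D14Ertd668e at -0.41 (0.31). The risers H2-D1 and B2m present peptides. Other tested genes that serve this presentation, named after their values were seen, did not pass. They were H2-K1 (0.26, limma adjusted p = 0.56), Tap1 (1.01, 0.096), Tapbp (0.82, 0.088) and Psmb9 (-0.42, 0.16). The unadjusted limma p was 0.017 for Tap1, 0.014 for Tapbp and 0.049 for Psmb9. Tap1 and Tapbp passed with TPM rescaling, and Tap1, Tapbp and Psmb9 with array weights.

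**Figure D2:**
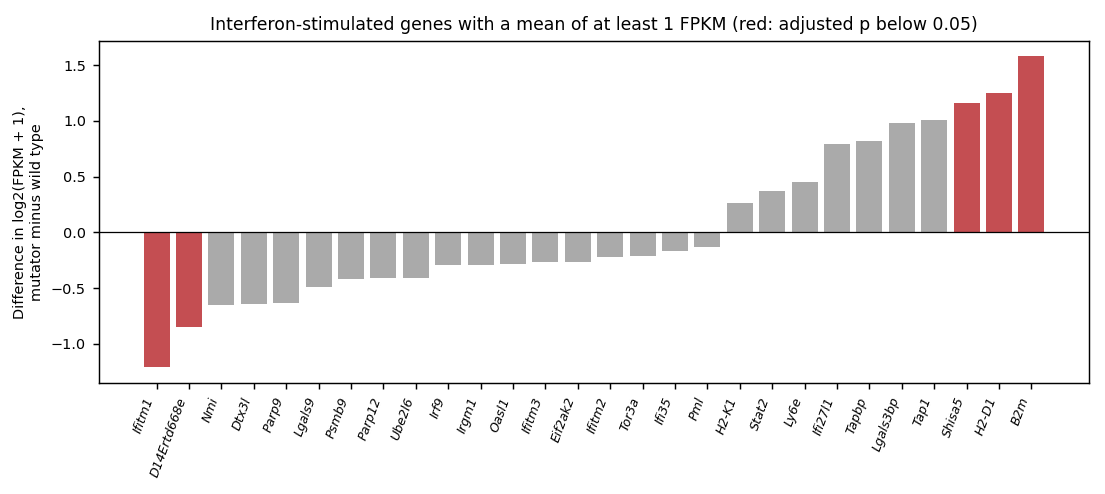
Log2 difference, mutator minus wild type on log2(FPKM + 1), for the tested interferon-stimulated genes named on the axis; red bars passed an adjusted p below 0.05. The bars run from -1.21 for Ifitm1 to 1.58 for B2m, with 10 above the line (median of all 29 -0.22; 0.16 after TPM rescaling).

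The other 41 interferon-stimulated genes lay below the filter. Their summed FPKM was 14.5, 7.52 and 7.75 in wild-type and 19.4, 19.5, 18.1, 6.58 and 8.34 in mutator libraries. Mutator 1 to 3 were above all wild-type libraries, while mutator 4 and 5 were not. Of the 41 genes, 12 were highest in mutator 1, 10 in mutator 2, 7 in mutator 3 and 9 in wild-type 1. Mutator 1 and 2, counted as 1 sample in the tests, are separate libraries in this count. The share of all genes below the filter that was highest in each library was not counted. Slfn2, a growth regulator of immune cells chosen after its values were seen, stood at 0.063 to 0.109 FPKM in wild-type and at 1.709, 1.736, 0.431, 0.099 and 0.156 FPKM in mutator libraries. The chemokine gene Ccl5, chosen likewise, stood at 0.601, 0.222 and 0.104 FPKM in wild-type and 3.011, 2.148, 0.159, 0.282 and 0.327 FPKM in mutator libraries. Not all of the 41 went this way. Oas1g and Oas1a, also chosen after their values were seen, were lower in every mutator library than in any wild-type library. Oas1g stood at 0.613, 0.22 and 0.581 FPKM in wild-type and 0.121, 0.181, 0.104, 0.031 and 0.031 FPKM in mutator libraries.

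Most markers of blood cells were higher in mutator 1 and 2 than elsewhere, but not the most abundant of them. The sum of 12 such markers was 16.7 to 22.4 FPKM in wild-type libraries and 32.5, 33.6, 20, 21.9 and 22.6 FPKM in mutator libraries, and of the 4 that were tested 0 passed (limma; 0 at an unadjusted p below 0.05). The myeloid marker Tyrobp was at 0.091, 0 and 0 FPKM in wild-type and 1.65, 1.84, 0.179, 0.05 and 0.213 FPKM in mutator libraries. The pan-leukocyte marker Ptprc was at 0.405 and 0.365 FPKM in mutator 1 and 2 and at 0.06 FPKM or less in the other libraries. Laptm5, with the highest level of the 12, was at 10.246, 18.08 and 15.75 FPKM in wild-type and 10.104, 10.892, 14.936, 17.826 and 12.093 FPKM in mutator libraries, so that mutator 1 was the lowest. The part of such cells in the low interferon-stimulated genes was not tested.

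**Figure D3:**
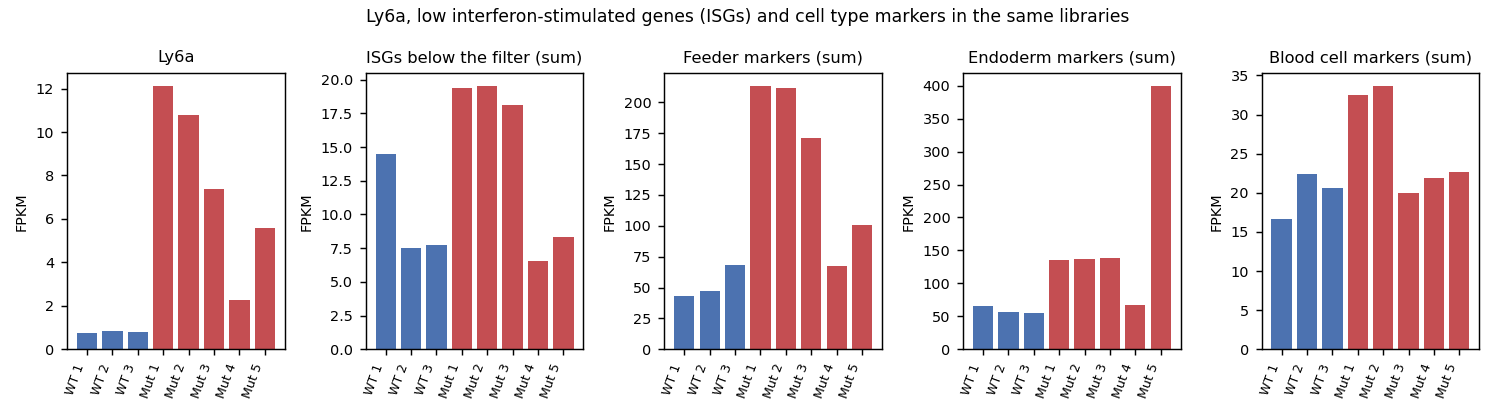
FPKM per library of Ly6a, of the summed 41 interferon-stimulated genes below the filter and of the summed feeder, endoderm and blood cell markers, in 3 wild-type (blue) and 5 mutator (red) libraries. Mutator 1 and 2 exceed all wild-type libraries in all 5 panels, mutator 4 is within or next to the wild-type range in all but Ly6a, and mutator 5 has the highest endoderm sum, 399.

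Last, 8 genes that keep mtDNA and mtRNA inside mitochondria or form pores in the outer membrane were all tested and none passed (0 with limma, 3 at an unadjusted p below 0.05); all 8 differences were negative (1 was positive without wild-type 1), with a median of -0.34, and with TPM rescaling the median was 0.13 against 0.37 for all genes. The most abundant were the channel genes Vdac1 (-0.09), Vdac2 (-0.24) and Vdac3 (-0.57, limma adjusted p = 0.095), of which Vdac1 and Vdac2 turned positive under TPM rescaling (0.42 and 0.27). Tfam, which packages mtDNA and was named after its values were seen, was at 29.7 ± 6.87 in wild-type and 19.1 ± 5.33 FPKM in mutator samples (SD, n = 3 and 4; -0.63, limma adjusted p = 0.14).

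**Figure D4:**
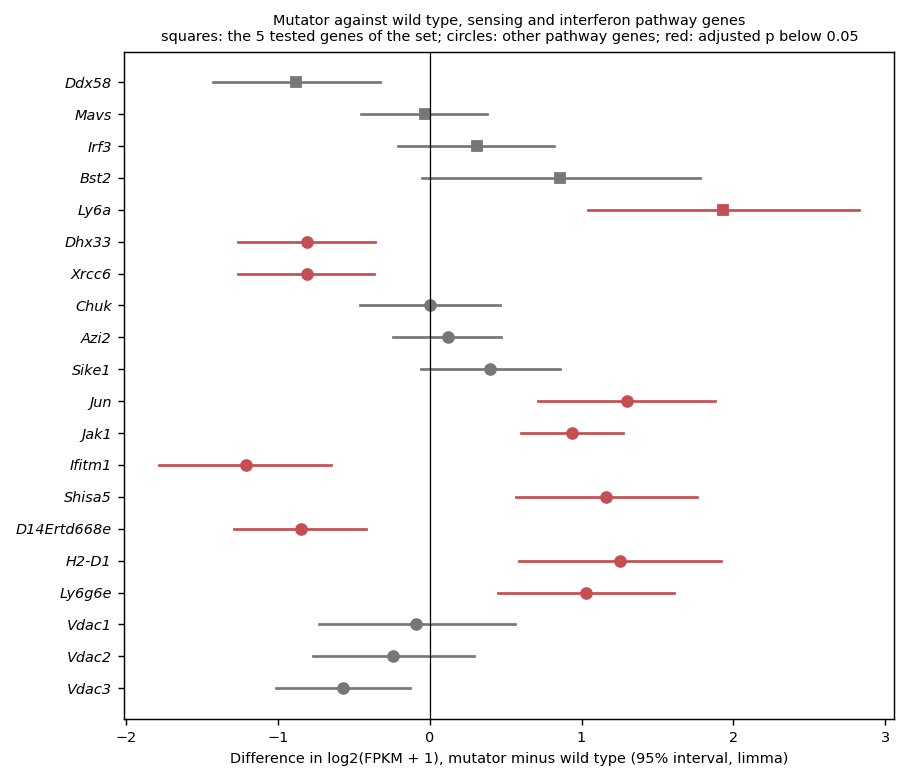
Log2 differences, mutator minus wild type on log2(FPKM + 1), with 95% limma intervals, for the 5 tested members (squares) and the other listed genes named by rule (circles). Red marks an adjusted p below 0.05. Ly6a, Jun, Jak1, Shisa5, H2-D1 and Ly6g6e lie to the right in red, Dhx33, Xrcc6, Ifitm1 and D14Ertd668e to the left, and the intervals of Ddx58 and Vdac3 exclude 0 although their adjusted p did not pass.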

How the data were processed

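The deposited values were FPKM, 1 column per library and 1 row per gene, made by the authors; STAR and Cufflinks are named in the submitters' processing notes, while versions, genome build, annotation and strand setting are not given in the sources used here. Groups came from the sample titles. Rows of the 265 symbols found on several rows were summed, and 31 missing cells stayed missing. The limma package (3.58.1, under R 4.3.3; lmFit, then eBayes with its trend option) was applied to log2(FPKM + 1) of every gene averaging at least 1 FPKM. This scale understates the change of low genes. Exact two-sided permutation tests covered each of the 9 members. No test for counts was run on FPKM. The p-values set each group difference against the spread between samples within the groups, which for wild type may be that of 1 embryo. Gene positions were looked up in GENCODE M21 through the Ensembl gene ID. Of the listed pathway and marker genes, 9 were found under other names. The fit was tested on simulated data. A listed gene is not reported here on its own or plotted, though it stays in the counts and medians of its lists. Members, lists and the rule for named genes were chosen with earlier results of these data known. That rule took all members; of each list up to 4 called genes with the smallest p, or the 3 most abundant where none was called; the 4 genes most like a called member; and its chromosomal neighbours. Alternatives covered pseudocounts of 0.1 and 0.5, filters of 0.5 and 5 FPKM or none, TPM rescaling, median-of-ratios scaling, array weights, all 8 libraries separately, a replicate block and leaving out each sample. Exact tests used SciPy 1.17.1, figures matplotlib 3.10.9, and tables pandas 2.3.3 with numpy 2.4.6, under Python 3.11.15.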

Additional observations from a re-analysis of the deposited data

Results flagged for a closer look

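Of the named genes, 3 values stood far from the other samples of their group, out of 31 groups of samples looked at, where chance alone marks about 1 in 20. The mutator 1 and 2 sample was the highest of the 4 mutator samples for Isg15, at 0.689 FPKM, with the others at 0.158 to 0.185 FPKM. The same sample was the lowest for Dhx33, at 5.34 FPKM, while the others were at 7.303 to 7.559 FPKM. Mutator 5 was the highest for D14Ertd668e, at 4.43 FPKM, while mutator 3 and 4 were at 3.475 and 3.529 FPKM.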

How the results depend on the processing

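The number of genes called among all tested was 895. It was 4 with no filter, 2150 with median-of-ratios scaling, 2203 with all 8 libraries counted separately and 3613 with array weights, and 2 to 1096 when 1 sample was left out (5 without the mutator 1 and 2 pair). TPM rescaling gave 1092 higher and 21 lower, against 353 and 542. Of the members 1 was called, Ly6a; none was with no filter (0 with limma, 2 at an unadjusted p below 0.05), 2 with median-of-ratios scaling or all 8 libraries counted separately (Ddx58 joined Ly6a), 3 with array weights (Bst2 too) and 0 to 2 when 1 sample was left out. Of the other listed genes 10 were called. The count was 0 with no filter (42 at an unadjusted p below 0.05), 19 with median-of-ratios scaling, 18 with all 8 libraries, 29 with array weights and 0 to 8 when 1 sample was left out. The samples share only a number: deviations of same-numbered samples correlated at 0.013, -0.012 and 0.051, and 2 of 6 samples correlated best with their own number. Fitting the replicate block left 1 gene called of all tested, 0 of the members (3 at an unadjusted p below 0.05) and 0 of the other listed genes (30). In that fit mutator 1 and 2 counted as separate libraries. Mutator 4 and 5 have no wild-type library of the same number, so they added nothing to its group difference. The direction of Mavs turned with TPM rescaling (0.34), array weights (0.09) and without wild-type 1 (0.15; range -0.14 to 0.15 when 1 sample was left out). Chuk, near 0, turned with TPM rescaling (0.48), median-of-ratios scaling and all 8 libraries (0.03 each), array weights (0) and without wild-type 1 (0.09), mutator 3 (0.11) or mutator 4 (0.02; range -0.09 to 0.11). Vdac1 turned with TPM rescaling (0.42) and without the mutator 1 and 2 pair (0.14), and Vdac2 with TPM rescaling (0.27). The causes were not tested. Of the values of the tested single genes under all alternatives, 274 kept their direction and side of the threshold, 107 lost the call and 10 gained it. Of 52 values of the 4 untested members 3 turned sign, all of Tmem173, near 0: -0.01 with a pseudocount of 0.1, -0.03 without wild-type 3 and -0.1 without mutator 3. Log2 differences of 3 low members grew with a pseudocount of 0.1: Ifih1 to 0.75, Irf7 to 0.57 and Isg15 to 1.35. Depth was not recorded, so counting error could not be given for low values such as those of Isg15.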

Other observations

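Mutator 3 stood apart in another set of interferon-responsive genes, chosen after their values were seen. Oasl2, related to the antiviral oligoadenylate synthetases, was at 3.074 FPKM in mutator 3 and at 0.14 to 0.457 FPKM in the other mutator libraries, with 0.848, 0.202 and 0.301 FPKM in wild type. Gbp2, an interferon-inducible GTPase, was at 3.173 FPKM in mutator 3 and 0.184 to 0.912 FPKM in the other mutator libraries, with 1.72, 0.298 and 0.404 FPKM in wild type. The factor gene Irf1 was at 19.294 FPKM in mutator 3 and 2.91 to 3.837 FPKM in the other mutator libraries, with 15.647, 6.007 and 8.335 FPKM in wild type. Wild-type 1 was the second highest library for each of these 3 genes.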
